A study of Rattus norvegicus with 16 samples.

Results

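The cytosolic ribosomal protein genes of the rat retina were followed across a model of oxygen-induced retinopathy. Members were the probe sets of the deposited table whose 1 annotated symbol begins with Rpl or Rps followed by a digit, together with Rplp0, Rplp1, Rplp2 and Rpsa. Ribosomal S6 kinase genes and names ending as pseudogenes were left out. For a gene with several probe sets, the set with the highest mean over the 16 arrays stood for it. This gave 73 genes of the 14324 genes tested. Of these, 27 encode proteins of the small subunit and 45 proteins of the large subunit. The last, Rps19bp1, fits the naming rule by its letters, but its product is a protein that binds Rps19 and not a part of the ribosome. It is described apart.

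The study set Sprague Dawley (SD) rats, generally known as susceptible to the model, against Fischer (F344) rats, generally known as resistant. Dams and litters entered an oxygen chamber within 12 h of birth and breathed 80% and 21% oxygen in turns of 24 h (cyclic hyperoxia), and age-matched controls stayed in room air. Retinal RNA was taken on post-natal day 5 or day 6, which gave 8 groups of 2 arrays. They were SD and F344 rats under cyclic hyperoxia and SD and F344 rats in room air, on each day. Turns of 24 h put successive days in different turns, so for exposed rats age and oxygen turn cannot be told apart. Hyperoxic here means the cyclic exposure, whichever turn applied at collection. RNA of single rats was combined, so each array holds a pool, and the design text speaks of 3 rats from 2 litters without making clear how they were divided. P values therefore measure only the spread between pools, and 2 arrays per group limit the precision. In whole retina, fewer cells of a type and less RNA per cell cannot be told apart.

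Each ribosome carries 1 copy of most ribosomal proteins, and cells make these proteins in balanced amounts. In vertebrates their mRNAs are grouped as TOP mRNAs, which start with a cytosine followed by a run of pyrimidines (the terminal oligopyrimidine tract). Signalling through mTOR, a kinase that senses nutrients, energy and growth factors, controls the translation of these mRNAs through this tract. Dividing progenitor cells and growing young neurons, both found in the developing retina, are known to make many ribosomes.

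The annotated starts of members are shown because the tract at this position defines the mRNA class. Windows run from 30 bases before the RefSeq start to the 15 bases from it, on the rat assembly GRCr8, 5′ to 3′ on the gene's own strand. Capitals mark a run of C and T of at least 5 bases that begins with C within 3 bases of the annotated start. The set holds members whose values are given in detail below, both with and without such a run.
Rps15, chr7:10068101-10068145, minus strand: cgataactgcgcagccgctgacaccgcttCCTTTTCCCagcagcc
Rpl9, chr14:43247560-43247604, plus strand: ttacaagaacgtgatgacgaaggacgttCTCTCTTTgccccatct
Rps18, chr20:4933715-4933759, plus strand: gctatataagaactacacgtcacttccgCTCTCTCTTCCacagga
Rps7, chr6:50999431-50999475, minus strand: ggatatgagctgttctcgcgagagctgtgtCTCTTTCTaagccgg
Rpl35a, chr11:81235007-81235051, minus strand: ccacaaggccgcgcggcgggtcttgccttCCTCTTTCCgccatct
Rplp0, chr12:46718376-46718420, minus strand: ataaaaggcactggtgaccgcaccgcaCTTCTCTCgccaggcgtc
Rpl28, chr1:78083518-78083562, minus strand: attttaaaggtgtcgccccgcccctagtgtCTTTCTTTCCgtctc
Rps15a, chr1:181860270-181860314, minus strand: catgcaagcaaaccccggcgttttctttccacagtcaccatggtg
Rpl41, chr7:1563483-1563527, minus strand: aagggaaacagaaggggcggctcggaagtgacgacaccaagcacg

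Of the 61 members matched to a RefSeq promoter window by gene identifier, 33 (54.1%) had such a run, against 1926 of 18944 other protein-coding genes (10.2%). For 23 members (37.7%) the annotated first base itself was a C followed by more pyrimidines, against 2.32% of the other genes. No such run begins within 3 bases of the annotated start of Rps15a or Rpl41, although the Rps15a window holds a C-led run of pyrimidines just upstream of the searched bases. The tract was present in 18 of 32 matched members called higher on day 6 under hyperoxia and in 15 of 29 that were not called. For the strain difference in room air these counts were 15 of 21 matched members called lower in SD rats and 18 of 40 others. These counts are descriptions and rest on the annotated start, so a member without a run there is not shown to lack a tract. The Rps3 and Rpl4 windows, for example, hold C-led pyrimidine runs that begin upstream of the searched bases.

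Signals of the members were strong on the arrays. Their means over 16 arrays lay between 5.68 (Rps4y2) and 12.3 (Rpl10) on the log2 scale, with a median of 10.3, against a median of 6.14 over all genes, and 72 of 73 were above that median. A probe set's signal depends on its probes, so these values do not order the transcripts by abundance. Of the members, 56 (76.7%) were in the tenth of genes with the strongest signal. The 5 strongest signals were those of Rpl10, Rpl21, Rpl30, Rps4x and Rps29, and the 5 weakest those of Rps24, Rpl22l1, Rps27, Rps19bp1 and Rps4y2. Across the series, retina markers had high signals, with photoreceptor markers averaging 9.46 to 10.6 per array. Markers of erythroid cells, lens, pigment epithelium, microglia and skeletal muscle averaged between 4.81 and 6.44 per array. The second array of hyperoxic F344 retinae on day 6 stood apart, with an interquartile range over all genes of 3.15 against 3.36 to 3.53 on the other arrays.

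On day 6, taken over both strains, about every other ribosomal protein gene was higher in hyperoxic retinae than in room air. Of 73 members, 37 rose and none fell at an adjusted p under 0.05 (limma with Benjamini-Hochberg adjustment over all genes), while 4.01% of all genes rose and 6.74% were called in either direction. The estimate was positive for 69 of 73 members. Their median change was 0.38 on the log2 scale, against -0.0073 over all genes. Of the called genes, 14 belong to the small subunit and 22 to the large one, and the other is Rps19bp1. In 23 members every hyperoxic array was above every room air array, which held for 4.6% of all genes. The estimate passed 0.5 on the log2 scale in 13 members.

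The members' median on each day 6 array showed the same order. It was 10.39 and 10.45 in SD retinae and 10.46 and 10.65 in F344 retinae under hyperoxia, against 9.81 and 9.96 in SD retinae and 10.23 and 10.19 in F344 retinae in room air. The 4 hyperoxic arrays were all above the 4 room air arrays, and SD retinae in room air were the lowest.

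**Figure D1:**
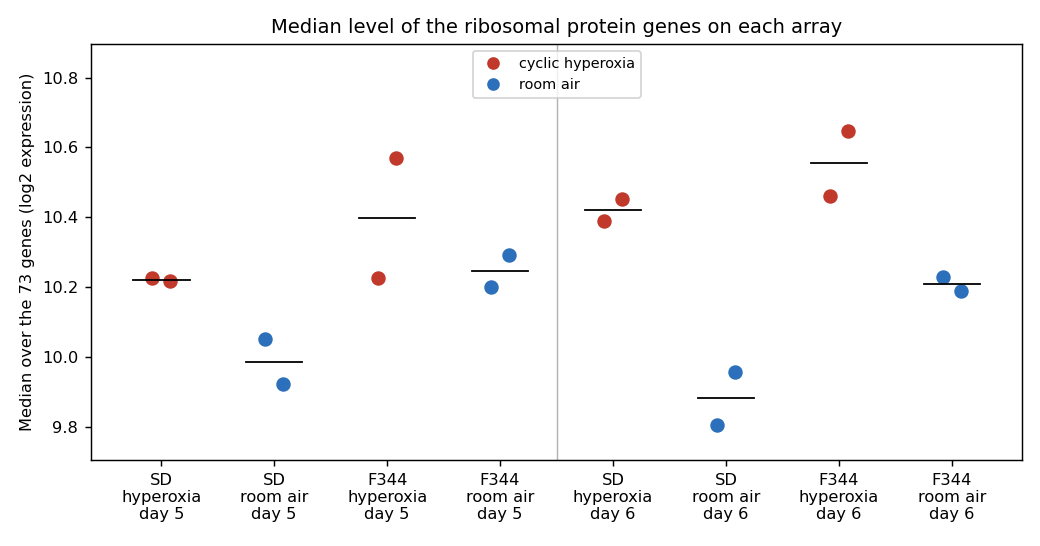
Median log2 expression of the 73 genes on each array (points, 2 per group) with the group mean (line), for cyclic hyperoxia (red) and room air (blue), by strain and day. On day 6 the hyperoxic arrays lie between 10.39 and 10.65, above all room air arrays, and SD retinae in room air are lowest at 9.81 and 9.96.

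Rpl7, a large subunit protein, had 10.81 and 10.71 in SD rats and 10.69 and 11.09 in F344 rats under cyclic hyperoxia, against 9.92 and 10.14 in SD rats and 10.36 and 10.17 in F344 rats in room air. All hyperoxic arrays were higher than all room air arrays. The change was 0.68 ± 0.11 (moderated SE), a 1.6-fold rise with a limma adjusted p of 0.00514.

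Rps15, a small subunit protein, had 8.60 and 8.69 in SD rats and 8.75 and 8.89 in F344 rats under cyclic hyperoxia, against 7.88 and 7.88 in SD rats and 8.30 and 8.45 in F344 rats in room air. The groups did not overlap here either, and both SD room air arrays stood at the lowest value of the gene. Rps15 rose by 0.61 ± 0.10, or 1.52-fold (limma adjusted p = 0.0065). Rpl7 and Rps15 were the 2 members that stayed called whichever of the 16 arrays was left out.

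The largest estimates were those of Rps23, a small subunit protein near the decoding centre, and Rps15a. Rps23 had 11.07 and 10.86 in SD rats and 10.76 and 11.75 in F344 rats under cyclic hyperoxia, against 9.81 and 10.15 in SD rats and 10.48 and 10.68 in F344 rats in room air. The groups were apart, but the second hyperoxic F344 array was far above the first, and the change of 0.83 ± 0.17 (1.78-fold, limma adjusted p = 0.0133) was 0.58 without that second array. Rps15a had 9.23 and 9.41 in SD rats and 9.73 and 10.41 in F344 rats under cyclic hyperoxia, against 8.39 and 8.50 in SD rats and 9.31 and 9.36 in F344 rats in room air. Within each strain the hyperoxic arrays were higher, while hyperoxic SD arrays overlapped F344 arrays in room air. Its change was 0.81 ± 0.16 (1.75-fold, limma adjusted p = 0.0108), and 0.63 without the second hyperoxic F344 array.

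**Figure D2:**
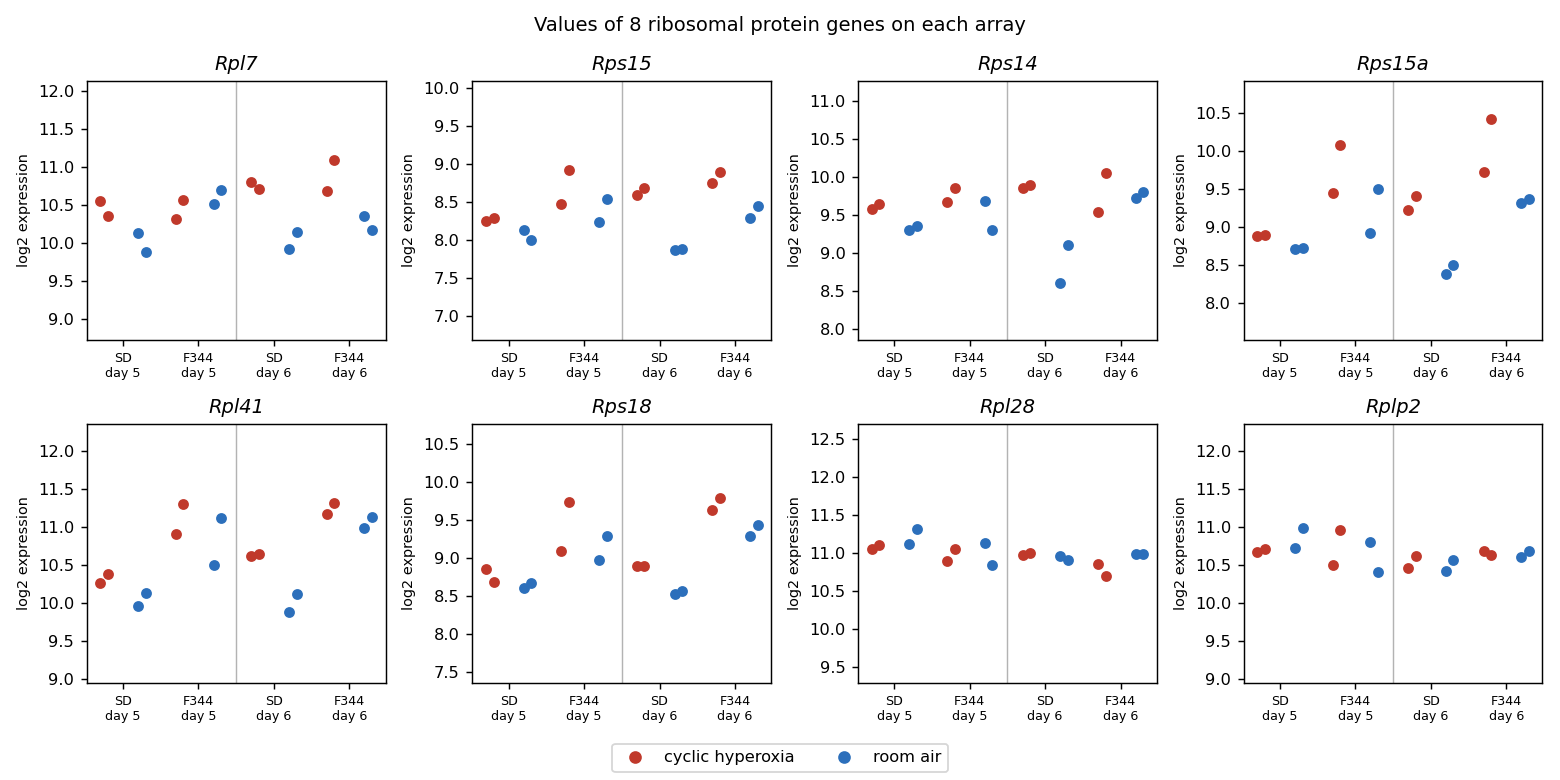
Log2 expression of 8 ribosomal protein genes on each array, for cyclic hyperoxia (red, left of each pair) and room air (blue), by strain and day, and every panel spans the same log2 range. Rpl7, Rps15, Rps14 and Rps15a are higher in hyperoxic SD retinae on day 6, Rpl41 and Rps18 are lower in SD than in F344 retinae, and the Rplp2 points of hyperoxic and room air retinae overlap on day 6.

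Other small subunit genes that rose over both strains were Rps4x (0.46 ± 0.083), Rps7 (0.46 ± 0.092), Rps20 (0.48 ± 0.097) and Rps3 (0.53 ± 0.11), the last a protein of the mRNA entry channel. Further calls were Rps14 (0.53), Rps13 (0.52), Rps3a (0.50), Rps12 (0.45), Rps4y2 (0.44), Rps28 (0.42) and Rps16 (0.36), all log2 changes with limma adjusted p between 0.0238 and 0.0497. The small subunit calls thus ran from 0.36 to 0.83.

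Among large subunit genes, Rpl36al1, which encodes a near-identical copy of the Rpl36a protein, rose by 0.67 ± 0.12 (1.59-fold, limma adjusted p = 0.00774). Rpl36a itself rose by 0.58 ± 0.15 (limma adjusted p = 0.0331), but probes of such copies can share targets, so the pair is uncertain. Rpl9 (0.56 ± 0.10), Rpl39 (0.55 ± 0.11), a protein of the peptide exit tunnel, Rpl37a (0.53 ± 0.11), Rpl14 (0.50 ± 0.10) and Rpl35a (0.49 ± 0.11) rose as well. The other large subunit calls had log2 changes between 0.31 (Rpl34) and 0.48 (Rpl27). They were Rpl3, Rpl5, Rpl6, Rpl7a, Rpl10a, Rpl17, Rpl18, Rpl23a, Rpl27, Rpl27a, Rpl31, Rpl32, Rpl34 and Rpl35.

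**Figure D3:**
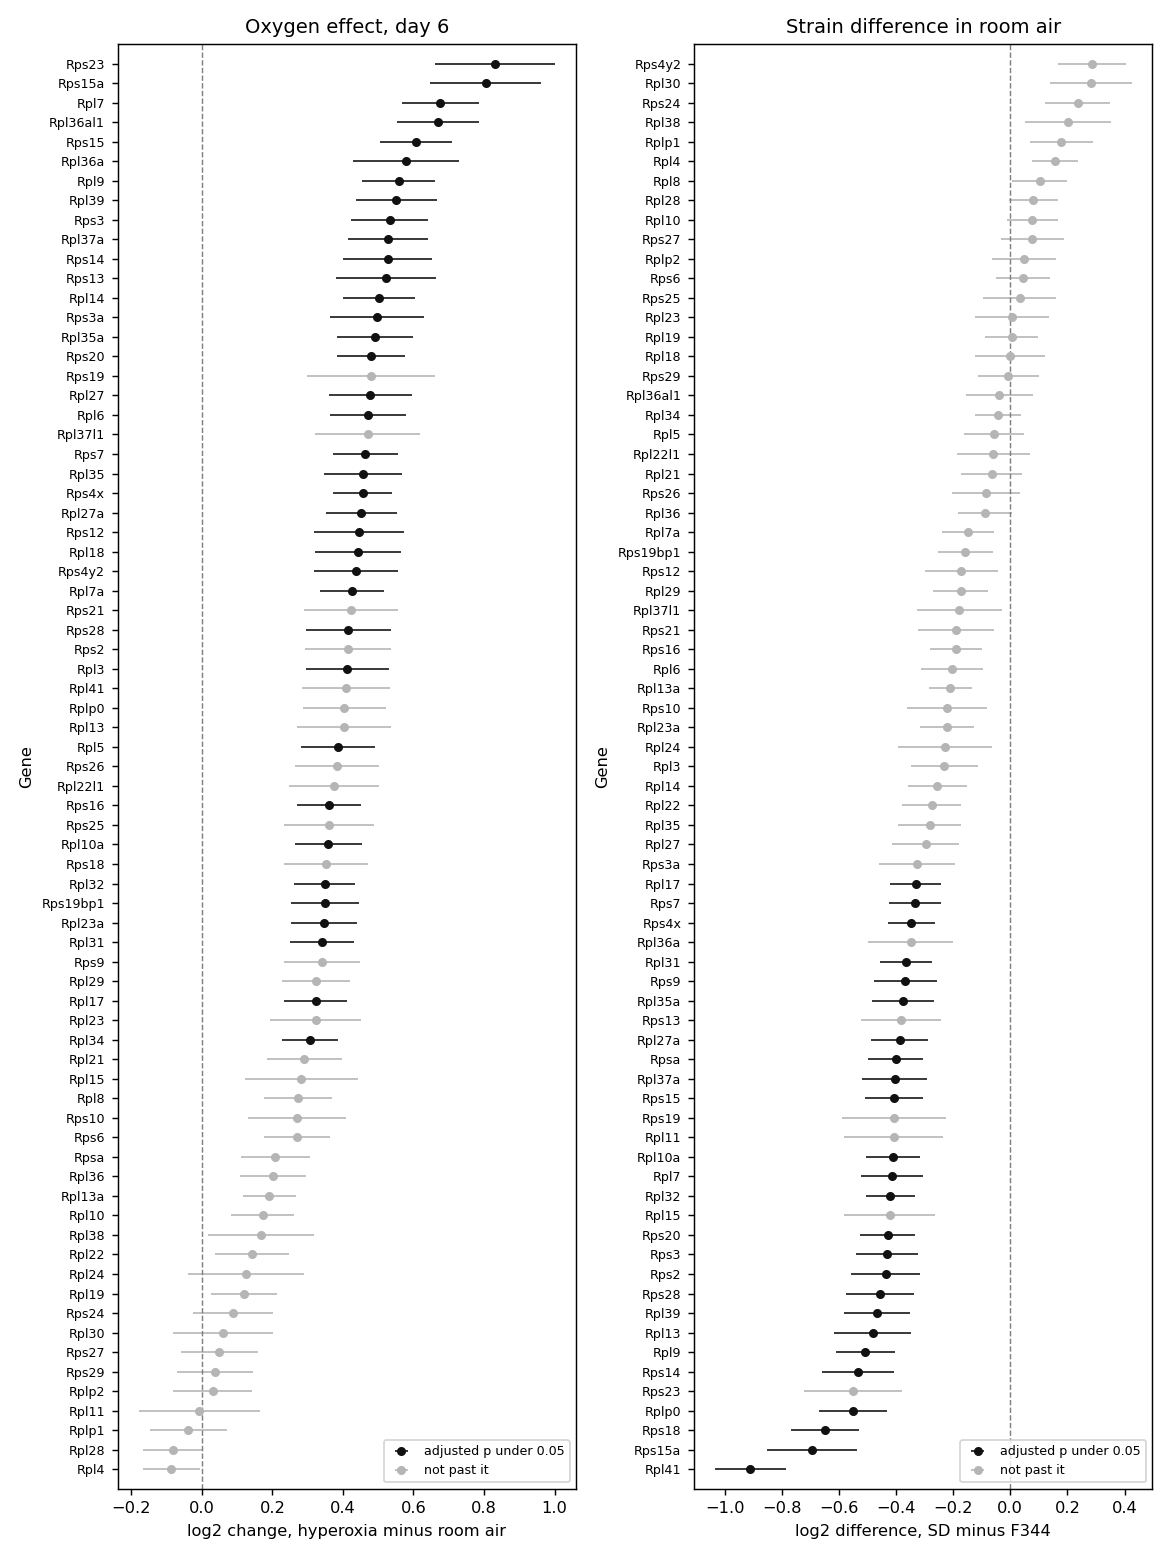
Log2 difference of each of the 73 genes with its moderated standard error, for cyclic hyperoxia minus room air on day 6 over both strains (left) and SD minus F344 in room air over both days (right). Black marks an adjusted p under 0.05: 37 genes are higher under hyperoxia and 25 are lower in SD, with none called the other way.

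Several members had estimates near 0. The genes of the stalk proteins, which recruit elongation factors to the large subunit, had unlike estimates, none of them called over both strains. The difference between these genes was not tested. Rplp0, the base of the stalk, had 11.00 and 10.94 in SD rats and 11.09 and 10.89 in F344 rats under cyclic hyperoxia, against 10.28 and 10.06 in SD rats and 10.95 and 11.02 in F344 rats in room air. In SD rats hyperoxic arrays were higher, and in F344 rats the groups overlapped. Over both strains the change of 0.40 ± 0.12 did not pass (limma adjusted p = 0.0518). Rplp2 had 10.46 and 10.62 in SD rats and 10.69 and 10.64 in F344 rats under cyclic hyperoxia, against 10.42 and 10.57 in SD rats and 10.61 and 10.70 in F344 rats in room air, and hyperoxic and room air arrays overlapped within each strain. Its change was 0.03 ± 0.11 (limma adjusted p = 0.905), and that of Rplp1 was -0.039 ± 0.11 (limma adjusted p = 0.873).

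The other estimates near or under 0 were those of Rpl4 (-0.086 ± 0.082), Rpl28 (-0.082 ± 0.086), Rpl11 (-0.0072 ± 0.17), Rps29 (0.036 ± 0.11), Rps27 (0.05 ± 0.11) and Rpl30 (0.059 ± 0.14), with limma adjusted p between 0.564 and 0.986. For Rpl4 a second, weaker probe set gave 0.24, not called, and the 2 sets correlated over arrays at only 0.401. Rpl5 and Rpl11 enter the ribosome as 1 particle with a small ribosomal RNA, and in human and mouse cells both bind the p53 regulator MDM2. Rpl5 rose by 0.39 ± 0.10 (limma adjusted p = 0.0402), while the Rpl11 estimate was within its error of 0, and its arrays ranged from 8.45 to 9.24 on day 6. Between the 3 probe sets of Rpl5 the correlations over arrays ran from 0.327 to 0.934.

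Among members with known further roles, Rps6, the ribosomal substrate of S6 kinase, had an estimate of 0.27 ± 0.094 (limma adjusted p = 0.0931). Rpsa, also known as the laminin receptor, had 0.21 ± 0.097 (limma adjusted p = 0.204), and Rpl10, which joins the large subunit late in its assembly, had 0.17 ± 0.089 (limma adjusted p = 0.254). A second probe set of Rpl10, with a weaker signal, gave 0.45 and was called higher when fitted by itself, so the estimate for Rpl10 depends on the probe set. For Rps19, the gene mutated most often in human Diamond-Blackfan anaemia, the estimate was 0.48 ± 0.18 with a wide spread between arrays (limma adjusted p = 0.119). Of the paralogues Rpl22 and Rpl22l1, neither passed, with 0.14 ± 0.10 and 0.37 ± 0.13 (limma adjusted p = 0.438 and 0.0872). Rps19bp1, the binding protein, rose by 0.35 ± 0.096 (limma adjusted p = 0.0415).

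Leaving out an array changes the spread estimate of every gene. Shares of all genes called are not given, here or below, for fits that leave out, rescale or weight arrays. The count over both strains depended on single arrays. It was 2 without the first hyperoxic SD array of day 6, 8 without either F344 room air array, 14 without the second hyperoxic F344 array, 16 without the first SD room air array and 19 without the second hyperoxic SD array, all of day 6. Without either hyperoxic SD array of day 5, which only adds to the estimate of spread, it was 23. With array weights it was 22. The members' median change lay between 0.31 and 0.43 with an array left out.

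Within SD retinae on day 6, 19 members rose and none fell, while 2.23% of all genes rose and 2.79% were called in either direction. The median change was 0.45, and in 62 members both hyperoxic arrays were above both room air arrays, which held for 25.3% of all genes. Rps14, a small subunit protein, had 9.86 and 9.90 in hyperoxic SD retinae, against 8.61 and 9.11 in SD retinae in room air. This was the largest change, 1.02 ± 0.18 or 2.03-fold (limma adjusted p = 0.0129). In F344 retinae Rps14 had 9.54 and 10.06 under hyperoxia, against 9.72 and 9.81 in room air, and these overlapped.

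Rplp0 had 11.00 and 10.94 in hyperoxic SD retinae, against 10.28 and 10.06 in SD retinae in room air, a change of 0.80 ± 0.17 (1.74-fold, limma adjusted p = 0.0219). Rpl13a, which in human cells also acts outside the ribosome in the interferon response, had 11.00 and 10.90 in hyperoxic SD retinae, against 10.45 and 10.44 in SD retinae in room air, a change of 0.50 ± 0.11 (limma adjusted p = 0.0227). For both genes the hyperoxic arrays were clear of the room air arrays. The other calls in SD rats were Rps3 (0.82), Rps23 (0.99), Rps15a (0.88), Rpl39 (0.79), Rps13 (0.79), Rps15 (0.77), Rpl7 (0.73), Rpl9 (0.69), Rps4x (0.67), Rpl6, Rps20, Rpl31, Rpl27a, Rps7, Rpl10a and Rpl32 (0.54). No member passed without either hyperoxic SD array of day 6 or without the first SD room air array, 11 passed without the second, and 12 without either F344 room air array of day 6, while 35 passed without either hyperoxic F344 array of day 6. With every array scaled to the same median and interquartile range 3 passed, and with array weights 34.

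Within F344 retinae on day 6, 1 member rose and none fell, while 0.342% of all genes rose and 1.19% were called in either direction. The gene was Rpl36al1, with 8.50 and 9.16 in hyperoxic F344 retinae, against 8.05 and 8.10 in F344 retinae in room air, a change of 0.76 ± 0.16 (1.69-fold, limma adjusted p = 0.0419). Without the second hyperoxic array, which was far above the first, its change was 0.43. The median change of the members was 0.28, and 67 of 73 estimates were positive. Without the second hyperoxic array the median was 0.13 and no member passed, and without the first it was 0.38 and 19 passed. In 47 members both hyperoxic arrays were above both room air arrays, against 20.7% of all genes. The call on Rpl36al1 was also lost without either room air array of day 6, and without any 1 of the 6 hyperoxic arrays outside this comparison. Rpl7 followed with 0.62 ± 0.15 (limma adjusted p = 0.0569).

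The strains were set against each other through the interaction. No member differed in its day 6 oxygen effect between SD and F344 rats by limma's adjusted p, and 0.0559% of all genes were called. At an unadjusted p under 0.05, 9 members had a larger effect in SD rats, as did 8.04% of all genes. The median difference (SD minus F344) was 0.18, but 0.33 without the second and 0.085 without the first hyperoxic F344 array of day 6. The smallest p belonged to Rpl13a (0.62 ± 0.15, limma adjusted p = 0.111) and Rps14 (0.99 ± 0.25, limma adjusted p = 0.128). The smallest p of the opposite sign were those of Rps29 (-0.39 ± 0.21) and Rps26 (-0.35 ± 0.24). The calls in SD rats and the single call in F344 rats therefore do not show a difference between the strains.

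On day 5 the members' median change was also positive, but no member was called by limma over both strains, while 0.209% of all genes were. At an unadjusted p under 0.05, 14 members were higher under hyperoxia and none lower, against 5.44% of all genes higher. The median change was 0.14, with 61 of 73 positive, but it was 0.054 without the second and 0.21 without the first hyperoxic F344 array of day 5. Rps3 (0.40 ± 0.11, limma adjusted p = 0.195) and Rpl13a (0.25 ± 0.075, limma adjusted p = 0.237) had the smallest p among positive estimates, Rps27 (-0.23 ± 0.11) and Rps29 (-0.19 ± 0.11) among negative ones. In SD rats alone, no member was called (0.0628% of all genes), 8 passed unadjusted (9.05% of all genes), and the median was 0.15, with the smallest p for Rpl13a and Rps3. Both hyperoxic arrays were above both room air arrays in 50 members, against 24.6% of all genes. In F344 rats alone, again no member was called (0.126% of all genes), 9 passed unadjusted (8.36% of all genes), and the median was 0.12, with the smallest p for Rpl9 and Rpl39. Here both hyperoxic arrays were above both room air arrays in 15 members, against 20.5% of all genes.

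The members' median was 10.22 and 10.22 in SD retinae and 10.23 and 10.57 in F344 retinae under hyperoxia on day 5, against 10.05 and 9.92 in SD retinae and 10.20 and 10.29 in F344 retinae in room air. The hyperoxic F344 arrays lay far apart, and the F344 median change was -0.035 without the second of them and 0.26 without the first. The day 5 strain difference of the oxygen effect had no call among the members, 2 at an unadjusted p under 0.05 (6.14% of all genes), and none among all genes by adjusted p (0.0% called). Its smallest p were those of Rpl7 (0.61 ± 0.22) and Rpl34 (0.41 ± 0.16) with a positive sign, and of Rpl36 (-0.37 ± 0.19) and Rpl23a (-0.27 ± 0.19) with a negative sign.

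Whether the oxygen effect differed between days was tested in each strain. No member was called by limma in either. In SD rats the median difference (day 6 minus day 5) was 0.30, 70 of 73 estimates were positive and 14 members passed unadjusted (3.78% of all genes), with 0.112% of all genes called. Rps14 (0.74 ± 0.25) and Rps15 (0.57 ± 0.20) came first. In F344 rats the median was 0.15 with 6 unadjusted passes (14.6% of all genes) and 1.02% of all genes called, led by Rpl7 (0.78 ± 0.22, limma adjusted p = 0.097) and Rpl34 (0.57 ± 0.16). Without the first hyperoxic F344 array of day 6, 5 members were called there. Without the first hyperoxic F344 array of day 5 the median was -0.049, and 0.30 without the second. Without the first and second hyperoxic F344 array of day 6 it was 0.25 and 0.020, and without the second room air F344 array of day 5 and the first of day 6 it was 0.094 and 0.086. Members were thus called on day 6 and not on day 5, but no member passed the test of a difference between the days on all arrays. The days also fall in different turns of the oxygen cycle, so age and turn cannot be told apart.

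**Figure D4:**
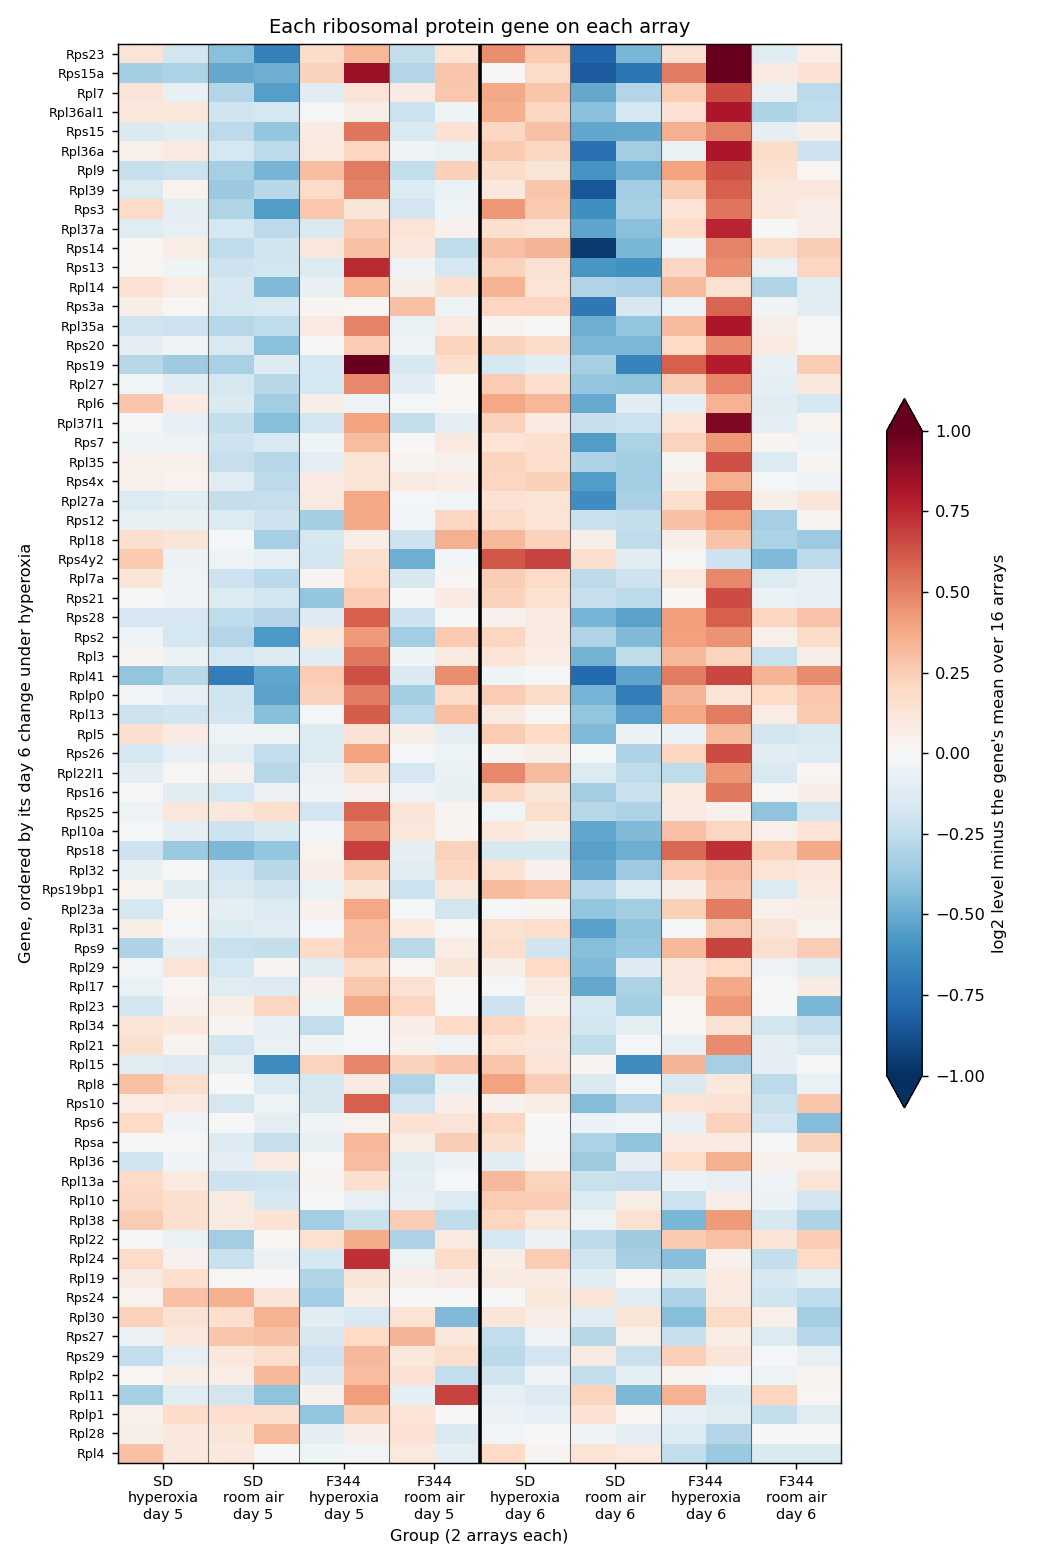
Log2 level of each of the 73 genes (rows, ordered by day 6 change over both strains) on each of the 16 arrays (columns, 2 per group), as the difference from the gene's mean over all arrays, red above and blue below, cut at 1 either way. SD retinae in room air on day 6 are blue in most rows, the second hyperoxic F344 array of day 6 is the reddest column, and the lowest rows show no such pattern.

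SD and F344 retinae differed in the same gene family without hyperoxia. In room air, over both days, 25 of 73 members were lower in SD rats and none was higher, while 5.33% of all genes were lower and 9.35% were called in either direction. The median difference (SD minus F344) was -0.23, against 0.0083 over all genes, and 58 of 73 estimates were negative. Of the called members, 12 belong to the small subunit and 13 to the large one. In 28 members every SD array was below every F344 array, which held for 4.91% of all genes. The SD room air arrays of day 6 enter both this comparison and the day 6 oxygen effect, so low values there move both.

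Rpl41, the shortest ribosomal protein, had 9.96 and 10.13 on day 5 and 9.88 and 10.12 on day 6 in SD retinae, against 10.50 and 11.11 on day 5 and 10.99 and 11.12 on day 6 in F344 retinae, all in room air. SD arrays were all lower, with a log2 difference of -0.91 ± 0.12 (1.88-fold, limma adjusted p = 0.000363). Rps18, of the small subunit head, had 8.61 and 8.68 on day 5 and 8.52 and 8.58 on day 6 in SD retinae, against 8.97 and 9.29 on day 5 and 9.29 and 9.44 on day 6 in F344 retinae. Again no SD array reached an F344 array, and the difference was -0.65 ± 0.12 (1.57-fold, limma adjusted p = 0.00352).

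Rpl9 (-0.51 ± 0.10), Rpl32 (-0.42 ± 0.087) and Rplp0 (-0.55 ± 0.12) followed, with limma adjusted p of 0.00709, 0.00742 and 0.00935. With Rpl41 and Rps18, these were the 5 members called lower whichever array was left out. The other small subunit genes lower in SD rats were Rps15a (-0.70 ± 0.16), Rps14 (-0.53), Rps28 (-0.46), Rps2 (-0.44), Rps3 (-0.43), Rps20 (-0.43), Rps15 (-0.41), Rpsa (-0.40), Rps9 (-0.37), Rps4x (-0.35) and Rps7 (-0.33). The other large subunit genes were Rpl13 (-0.48), Rpl39 (-0.47), Rpl7 (-0.42), Rpl10a (-0.41), Rpl37a (-0.40), Rpl27a (-0.39), Rpl35a (-0.38), Rpl31 (-0.37) and Rpl17 (-0.33). Of the members, 15 had positive estimates, none of them called. The largest were those of Rps4y2 (0.28), Rpl30 (0.28), Rps24 (0.24), Rpl38 (0.20) and Rplp1 (0.18).

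The room air count was 6 without the second F344 array of day 6, 8 without the second F344 array of day 5, 9 without the second SD array of day 5, 10 without the first F344 array of day 6, 14 without the first SD array of day 6 and 16 without the first SD array of day 5. The median difference stayed between -0.30 and -0.20. With every array scaled to the same median and interquartile range, 3 members were called.

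Under cyclic hyperoxia, over both days, 11 members were lower in SD rats and 2 were higher. Of all genes, 3.78% were lower, 5.18% were higher and 8.96% were called in either direction. The median difference was -0.11, and 53 of 73 estimates were negative. It was -0.20 and -0.025 without the first and second F344 array of day 5, and -0.17 and -0.066 without the first and second F344 array of day 6. In 8 members every SD array was below every F344 array, against 5.45% of all genes. No array is shared with the room air comparison, and 8 members were called lower in SD rats in both. The share of all genes lower in both is not given here, so this overlap is only a description. The 8 members are Rps18, Rpl41, Rps15a, Rpl9, Rpl35a, Rps9, Rps28 and Rpl13.

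Rps18 had 8.86 and 8.69 on day 5 and 8.90 and 8.90 on day 6 in SD retinae, against 9.10 and 9.75 on day 5 and 9.63 and 9.80 on day 6 in F344 retinae, all under hyperoxia. The strains did not overlap, and the difference was -0.73 ± 0.12 (1.66-fold lower in SD rats, limma adjusted p = 0.0017). Rpl41 (-0.70 ± 0.12), Rps15a (-0.82 ± 0.16), Rpl9 (-0.50 ± 0.10) and Rpl35a (-0.52 ± 0.11) were lower with no overlap as well. Rps18, Rpl41 and Rps15a stayed called whichever array was left out. Rps19 (-0.78 ± 0.18, limma adjusted p = 0.0149) was lower with overlap, and the F344 arrays of day 5 lay at 8.49 and 9.65. Rpl22 (-0.35) and Rpl23a (-0.33) were also lower.

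The 2 members higher in SD rats under hyperoxia were Rpl4, a protein that lines the exit tunnel, and Rps4y2. Rpl4 had 11.36 and 11.17 on day 5 and 11.27 and 11.09 on day 6 in SD retinae, against 11.02 and 11.04 on day 5 and 10.82 and 10.69 on day 6 in F344 retinae. All SD arrays were above all F344 arrays, and the difference was 0.33 ± 0.082 (1.26-fold, limma adjusted p = 0.0206). A second probe set of Rpl4 gave 0.13 and was not called. Rps4y2 had 5.94 and 5.62 on day 5 and 6.30 and 6.35 on day 6 in SD retinae, against 5.49 and 5.83 on day 5 and 5.69 and 5.47 on day 6 in F344 retinae, a difference of 0.43 ± 0.12 (limma adjusted p = 0.0359), and its strains overlapped on day 5. Its signal was the weakest of the family, near the array medians of 6.04 to 6.20. The hyperoxia count was 5 without the second F344 array of day 5 or the first SD array of day 5, and 19 without the first F344 array of day 6. It was 6 and 7 without the first and second SD arrays of day 6, and 8 without the second SD array of day 5. With arrays scaled to the same median and interquartile range it was 6, and with array weights 8.

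Members differed in how far they moved. When each array was centred on its median over the members, so that a change is relative to the other members, 15 members were called for the day 6 oxygen effect, although 84.6% of all genes then are. With so many genes called, the adjustment hardly raised the p values. For Rpl10 the limma p was 0.0353 unadjusted and 0.0425 adjusted, so these calls are weaker than those above. Of the 15, 2 rose relative to the family, Rps23 (0.39) and Rps15a (0.36), and 13 fell behind it. These were Rpl4 (-0.53), Rpl28 (-0.52), Rplp1 (-0.48), Rplp2 (-0.41), Rps29 (-0.41), Rps27 (-0.39), Rpl30 (-0.38), Rps24 (-0.35), Rpl11 (-0.45), Rpl19 (-0.32), Rpl24 (-0.32), Rpl22 (-0.30) and Rpl10 (-0.27). Each value is that of the 1 probe set that stood for the gene. Without centring, the second probe sets of Rpl4, Rpl10 and Rpl24 changed by 0.24, 0.45 and 0.41 on day 6, so their place here belongs to 1 probe set. No probe set of Rpl28 or Rplp1 had a positive day 6 change. For the strain difference in room air, 3 members were lower in SD rats relative to the family, Rpl41 (-0.62), Rps15a (-0.40) and Rps18 (-0.36), and 14 were higher, while 47.3% of all genes were called in this fit. The adjustment was loose here too, and Rps25 had a limma p of 0.0178 unadjusted and 0.0417 adjusted. The 14 were Rps4y2 (0.58), Rpl30 (0.58), Rps24 (0.53), Rpl38 (0.50), Rplp1 (0.47), Rpl4 (0.45), Rpl8 (0.40), Rpl28 (0.37), Rpl10 (0.37), Rps27 (0.37), Rplp2 (0.34), Rps6 (0.34), Rps25 (0.33) and Rpl19 (0.30). Both comparisons share the SD room air arrays of day 6, so these orders are not independent.

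The day, which under the cycle also changes the oxygen turn, had no call among the members. In room air no member differed between day 6 and day 5 by limma, and 3.0% of all genes were called. Unadjusted, 6 members were lower on day 6, against 7.62% of all genes. The median difference (day 6 minus day 5) was -0.10, or -0.067 without the first F344 array of day 6, and Rps27 (-0.42 ± 0.11, limma adjusted p = 0.057) and Rps25 (-0.40 ± 0.13) had the smallest p. All 8 measured markers of cycling cells were lower on day 6 in room air, with a median difference of -0.91. Under hyperoxia no member was called either, 17 passed unadjusted (16 higher and 1 lower on day 6, against 18.3% of all genes), and 4.8% of all genes were called. Without the first hyperoxic F344 array of day 6, 14 were called, and 4 without the second hyperoxic F344 array of day 5. In room air 1 member was called without either hyperoxic F344 array of day 5, either one of day 6, or the second F344 room air array of day 5. The median under hyperoxia was 0.14. It was 0.076 and 0.21 without the first and second F344 array of day 5, and 0.22 and 0.082 without the first and second F344 array of day 6. The smallest p among positive estimates were those of Rpl7 (0.37 ± 0.11, limma adjusted p = 0.0658) and Rpl37a (0.34 ± 0.11), while Rpl4 (-0.18 ± 0.082) had the smallest p of the opposite sign. A moderated F test over the 8 groups called 37 members, against 21.8% of all genes, and 20 with every array scaled to the same median and interquartile range.

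Marker lists were read beside the members. The cycling cell markers averaged 6.8 to 7.11 on hyperoxic and 6.69 to 7.4 on room air arrays of day 6, the photoreceptor markers 10.1 to 10.6 and 10 to 10.4, and the microglia markers 5.57 to 5.83 and 5.41 to 5.66. The ganglion and amacrine cell markers averaged 8.44 to 8.54 on hyperoxic and 8.54 to 8.68 on room air arrays, so all 4 hyperoxic arrays but 1 were below the room air arrays. None of these 6 markers was called (median -0.17), with Gad1 at -0.36 ± 0.11 (limma adjusted p = 0.0618) and Tfap2b at -0.31 ± 0.099 (limma adjusted p = 0.0725). Of 8 cycling cell markers none was called for the oxygen effect over both strains (median -0.20), of 5 photoreceptor markers 1 rose (Nrl, 0.32), and of 4 microglia markers 2 rose (C1qa, 0.53, and Aif1, 0.29), while 4.01% of all genes rose. In SD rats on day 6 the microglia markers Csf1r (-0.20) and Cx3cr1 (-0.16) were below 0. The photoreceptor markers Crx (-0.26) and Pde6b (-0.14) were below 0 there, and Rom1 (0.42) and Rcvrn (0.35) above. None of these estimates was called. The cycling marker Cdk1 had 0.54 ± 0.19 over both strains and 0.89 ± 0.27 in SD rats (limma adjusted p = 0.0941 and 0.0859). In the strain comparison in room air 1 cycling marker was lower in SD rats (Cdk1, -1.23), with a list median of -0.37, and Pde6b, a rod gene, was higher (1.00). The part of cell composition in the members' values was not tested.

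Genes that work with ribosomal proteins moved in part. Fau, a fusion gene that also encodes a small subunit protein and lies outside the naming rule, had 10.24 and 10.12 in SD rats and 10.50 and 10.66 in F344 rats under cyclic hyperoxia, against 9.57 and 9.61 in SD rats and 10.07 and 10.24 in F344 rats in room air. Within each strain the hyperoxic arrays were above the room air arrays. Fau rose by 0.51 ± 0.098 (limma adjusted p = 0.0104). It was lower in SD rats in room air with a log2 difference of -0.42 ± 0.098 (limma adjusted p = 0.0151).

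Of 17 measured mRNAs of other proteins with a TOP, 3 rose on day 6 over both strains and none fell, against 4.01% of all genes that rose, with a list median of 0.14. These were the elongation factor subunits Eef1b2 (0.70 ± 0.11) and Eef1d (0.39 ± 0.08) and the initiation factor subunit Eif3h (0.33 ± 0.079), while the elongation factor Eef2 had -0.12 ± 0.10 (limma adjusted p = 0.504). In room air 4 of them were lower in SD rats, Eef1b2 (-0.60), Naca (-0.46), Eef1d (-0.41) and Tpt1 (-0.40), and 3 were higher, Npm1 (0.35), Vim (0.33) and Nap1l1 (0.29), against 5.33% of all genes lower and 4.02% higher. The list's room air median was -0.04. The medians of the ribosomal protein genes were 0.38 and -0.23. The difference between the lists was not tested.

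Of 22 measured genes of ribosome assembly and ribosomal RNA synthesis, 4 rose on day 6 and none fell (median 0.11), against 4.01% of all genes that rose. They were Fbl, the methyltransferase of ribosomal RNA (0.61 ± 0.095), Polr1c (0.60 ± 0.12) and Polr1d (0.51 ± 0.12), subunits shared by RNA polymerases I and III, and Nhp2 (0.34 ± 0.083). In room air 5 of this list were lower in SD rats and none was higher, against 5.33% of all genes lower. The largest difference was that of Rrp9 (-0.74 ± 0.12), a processing factor of ribosomal RNA. The others were Polr1c, Nhp2, Bop1 and Wdr12.

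Of 15 measured genes of growth control, 2 fell on day 6 under hyperoxia and none rose, while 2.73% of all genes fell, with a list median of -0.21. They were Mtor, the kinase itself (-0.40 ± 0.089, limma adjusted p = 0.0169), and Tsc2, an inhibitor of its activation (-0.34 ± 0.089, limma adjusted p = 0.0339). Mtor had 7.52 and 7.82 in SD rats and 7.99 and 7.72 in F344 rats under cyclic hyperoxia, against 7.99 and 8.10 in SD rats and 8.21 and 8.35 in F344 rats in room air. Hyperoxic arrays were lower within each strain. In room air 3 were lower in SD rats, against 5.33% of all genes, namely Akt1s1 (-0.41), Rps6kb2 (-0.32) and Tsc1 (-0.29), the first and last of which encode inhibitors in this pathway and the second an S6 kinase. Of 10 initiation factors, Eif4g2 fell on day 6 (-0.42 ± 0.11) and Eif6 was lower in SD rats in room air (-0.41 ± 0.13).

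**Figure D5:**
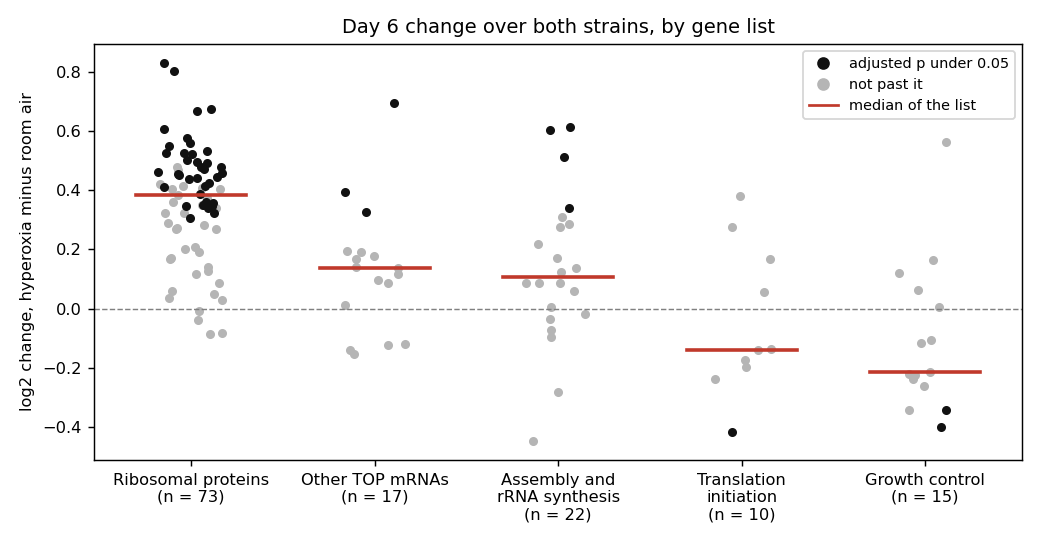
Log2 change on day 6 over both strains, cyclic hyperoxia minus room air, of each measured gene (points, black where the adjusted p is under 0.05) in 5 lists, with the list median (red line). The ribosomal protein genes have a median of 0.38, other TOP mRNAs 0.14, assembly and ribosomal RNA synthesis 0.11, initiation factors -0.14 and growth control -0.21.

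Ribosomal protein genes have many processed pseudogenes, so probe sets of a member can share targets, and signals of near-identical copies cannot be told apart. The members had 260 probe sets, 253 of them with distinct values, and up to 21 for Rpl21. For the 55 members with several, the median correlation between probe sets over the 16 arrays was 0.970 in the middle member, from 0.401 (Rpl4) to 0.999. On day 6 the oxygen effect was positive in 245 of 253 distinct probe sets and in all probe sets of 51 of 55 members, with 100 called higher and none lower when each probe set was fitted by itself. For the strain difference in room air 222 of 253 were negative, with 59 called lower and none higher. These probe sets are not independent measurements, and the share of all probe sets called in that fit is not given here.

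Rpl9 and Rps15a were the clearest in this respect. All 9 probe sets of Rpl9 and all 6 of Rps15a were called higher on day 6 under hyperoxia and lower in SD rats both in room air and under hyperoxia. Rpl7a was called higher in all of its 13 probe sets on day 6, between 0.32 and 0.43, and Rpl35a in all 8 distinct ones. Rps18 had 3 probe sets with strain differences in room air between -0.67 and -0.62. Rpl41 was less even, with differences between -0.91 and -0.32 over 3 probe sets, all of them lower in SD rats and 2 called.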

How the data were processed

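Retinal RNA of 16 pools was measured on Affymetrix gene arrays. The deposited values are log2 expression values that the authors made with Partek 6.4 and RMA, per the submitters' processing notes. RMA makes the value distributions of all arrays alike, so a change common to most transcripts would be removed. No scanner files were used here, and scan dates are not given in the sources used here. The annotation names 1 gene for 15097 of 27342 probe sets, several for 323, and 11922 are not listed. Names were updated through Entrez identifiers to the RefSeq table of GRCr8 (15067 matched, 72 of 73 members). The probe set with the highest mean stood for each of 14324 genes.

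The 8 group means were estimated together from all 16 arrays with limma 3.58.1 in R 4.3.3, with 8 residual and 7.41 prior degrees of freedom, and 14 contrasts and a moderated F test were taken from it. The Benjamini-Hochberg adjustment ran over all 14324 genes, and genes were called at an adjusted p under 0.05. The error given after a difference is its moderated standard error (n = 2 per group). The fit was tested on simulated data. Named are all called members, otherwise the 2 members with the smallest p each way in a contrast, the 5 strongest and 5 weakest signals, and a list of members with known further roles. Of that list, Rps27l, Rpl3l, Rpl10l, Rpl36al, Rpl39l and Rpl7l1 are not analysed here. The members, related gene lists and tests were chosen with earlier results of these data known. Alternatives left out each array, rescaled or requantiled arrays, centred them on the members, used array weights, a variance trend, a filter on weak signals, a replicate block and all probe sets. A removal of intensity-dependent shifts and a mean over probe sets were added after seeing the data.

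Promoter windows came from RefSeq sequence of GRCr8, in which both the gene's own strand and the annotated start were used as given, and 61 of 73 members had one.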

Additional observations from a re-analysis of the deposited data

How the results depend on the processing

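The counts of called members depended on the arrays used. When each array was left out in turn, the count ran from 2 to 49 for the day 6 oxygen effect over both strains, 0 to 35 in SD rats, 0 to 19 in F344 rats, 6 to 28 for the strain difference in room air, 5 to 19 under hyperoxia, 26 to 51 for the F test, 0 to 1 for the day difference in room air, 0 to 14 for the day difference under hyperoxia and 0 to 5 for the day difference of the oxygen effect in F344 rats. An arm then holds a lone array, which is assumed to vary like the other groups. The share of all genes called in each of these fits is not given here, so the changes in count are not particular to the members. In the other 6 comparisons no member passed in any of these fits. Replicate numbers are tied to no litter or batch by the labels. Over 28 pairs of groups, the correlation of the differences between replicates ran from -0.29 to 0.52. Its median was -0.023, and it was over 0.1 in 8. No pairing common to all groups was seen, but a link between single groups is not excluded. With the replicate block the counts were 37, 20, 25 and 15 for day 6 over both strains, day 6 in SD rats and the strain in room air and under hyperoxia, 1 for the day difference in room air and 38 for the F test, and no other call count changed by over 1.5 times. With arrays rescaled to the same median and interquartile range, 34 members were called over both strains on day 6, 3 in SD rats, 2 in F344 rats, 3 for the strain in room air, 6 under hyperoxia and 20 in the F test. Centred on the members' median, the counts were 15, 11, 3, 17, 11 and 20, of changes relative to the family, under the loose adjustment described above. With array weights they were 22 over both strains, 34 in SD rats, 0 in F344 rats, 8 for the strain under hyperoxia and 1 for the day difference in room air. When every probe set was tested, 106 of 260 were called over both strains, 52 in SD rats, 0 in F344 rats, 62 and 39 for the strain in room air and under hyperoxia, and 110 in the F test. The share of all probe sets called in that fit is not given here. The 1 call in F344 rats was also lost with a variance trend, after removal of intensity-dependent shifts and with the mean of all probe sets (0 each). The shift removal left 40 members called over both strains, 16 in SD rats, 24 in room air and 13 under hyperoxia. The cause of these changes was not tested.

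Estimates that changed sign were small and not called. For the day 6 oxygen effect over both strains these were Rpl11 (0.096 rescaled, 0.038 requantiled, 0.058 after shift removal, from -0.17 to 0.16 with an array left out), Rplp1 (0.12 rescaled, 0.019 after shift removal), Rplp2 (-0.011 to 0.071 with an array left out) and Rps27 (-0.032 to 0.13). For the strain difference in room air they were Rpl10 (-0.016 after shift removal), Rpl22l1 (0.019 rescaled, from -0.14 to 0.020 with an array left out), Rpl5 (0.072 rescaled, -0.15 to 0.039), Rplp2 (-0.030 after shift removal, -0.051 to 0.15), Rps27 (-0.0044 to 0.16) and Rps6 (-0.015 requantiled, -0.035 after shift removal, -0.017 to 0.10). The number of arrays, 2 per group, limits what can be called, and weak signals such as those of Rps4y2 and Rps19bp1 lie near the array medians.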
